A study of Homo sapiens with 22 samples.

Results

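The RNA-seq values of 9 genes of the NRF2 antioxidant response were examined: the regulators NFE2L2 and KEAP1 and the targets HMOX1, NQO1, GCLM, GCLC, SRXN1, TXNRD1 and OSGIN1. They were chosen by name, with earlier results of these data known, and all 9 were found among the 20668 gene symbols of each sample. The cells were MDA-MB-231, an established triple-negative breast cancer line with mutant p53, kept in hormone-depleted medium before treatment, a condition that all groups shared. The 5 groups were vehicle, dexamethasone (Dex, a synthetic glucocorticoid) at 100 nM for 2 h or 4 h, and compound A (CpdA, a selective modulator of the glucocorticoid receptor, GR) at 10 μM for 2 h or 4 h, with 2 biological replicates in each group and 10 samples in all. The ligands were therefore given at different concentrations, and each at 1 dose. The 2 vehicle samples carry no time in their labels, while their column headers name replicate 1 for 2 h and replicate 2 for 4 h, so replicate and time cannot be told apart in this group. Both served as the reference for every treatment. The question asked of the 9 genes was whether CpdA was followed by the transcript pattern of an electrophile response, and whether Dex was.

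NRF2 is a transcription factor that drives the antioxidant and electrophile response. It is encoded by NFE2L2. In resting cells the adaptor protein KEAP1 holds NRF2 to a CUL3 ubiquitin ligase, which has it degraded. When reactive cysteines of KEAP1 are modified by electrophiles or oxidants, NRF2 escapes, pairs with small MAF proteins and binds antioxidant response elements (AREs) near genes of glutathione synthesis, thioredoxin reduction, quinone reduction and haem breakdown. A rise of these target mRNAs, with or without a change in the mRNA of NFE2L2 itself, is the usual transcript readout of the response.

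Expression was given as RPKM, the reads of a gene scaled by transcript length and by the mapped reads of the library, which allows levels of different genes to be compared. The depth, estimated from the RPKM that 1 read is worth on short transcripts of known length, lay between about 51250000 and 62100000 mapped reads, the vehicle libraries being the shallowest, at 51250000 and 51950000 mapped reads. MDA-MB-231 marker genes were at their usual high levels, with VIM between 1270 and 1460 RPKM and AXL between 212 and 264 RPKM. ESR1 and PGR did not exceed 0.00484 RPKM and CDH1 did not exceed 0.465 RPKM. ERBB2, which is not amplified in triple-negative cells, was between 15.9 and 21.6 RPKM and EPCAM between 8.02 and 10.6 RPKM, so neither was near 0. The glucocorticoid target TSC22D3 (GILZ) was between 302 and 315 RPKM in the 4 Dex samples and between 8.22 and 12.4 RPKM in the 6 vehicle and CpdA samples. In these bulk samples, fewer expressing cells and less RNA per cell cannot be told apart.

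Matches to the letters of the ARE core near the starts of these genes are shown first. The ARE core was searched as TGACNNNGC on both strands of the RefSeq promoter windows (GRCh38.p14), each 300 bases long with 250 before and 50 after the annotated start. Of the 9 genes 8 had a window, 11 windows in all, and HMOX1 had none. The core was present in 4 of these 11 windows, belonging to KEAP1, GCLM and TXNRD1, against 13.3% of all 35116 windows. The longer core TGACTCAGC, which is 1 case of the shorter one and holds the letters of an AP-1 site, was in 0 of the 11 windows and in 0.561% of all windows. The 4 windows with a match are printed because they are the only windows searched for the set that hold these letters. The promoter of HMOX1 was not searched. Each runs 5′ to 3′ along the gene's strand, with 250 bases before and 10 after the start, and the capitals mark the core on either strand.
GCLM, chr1:93909421-93909680, minus strand: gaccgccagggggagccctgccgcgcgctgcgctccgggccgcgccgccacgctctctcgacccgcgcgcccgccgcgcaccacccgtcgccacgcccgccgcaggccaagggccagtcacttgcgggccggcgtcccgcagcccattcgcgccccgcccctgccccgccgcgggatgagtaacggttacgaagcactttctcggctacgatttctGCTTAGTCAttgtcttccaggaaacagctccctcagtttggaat
TXNRD1 window 1, chr12:104215529-104215788, plus strand: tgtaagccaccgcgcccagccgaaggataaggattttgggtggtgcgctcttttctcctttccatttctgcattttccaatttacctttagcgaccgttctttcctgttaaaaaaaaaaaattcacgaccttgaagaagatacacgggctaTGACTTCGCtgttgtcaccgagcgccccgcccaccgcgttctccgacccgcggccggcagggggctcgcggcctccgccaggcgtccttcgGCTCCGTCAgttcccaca
TXNRD1 window 2, chr12:104286782-104287041, plus strand: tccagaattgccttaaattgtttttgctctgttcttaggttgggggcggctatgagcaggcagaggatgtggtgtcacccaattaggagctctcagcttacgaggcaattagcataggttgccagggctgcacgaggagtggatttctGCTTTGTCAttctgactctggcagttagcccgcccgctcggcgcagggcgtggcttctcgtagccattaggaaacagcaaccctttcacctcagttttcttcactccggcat
KEAP1 window 2, chr19:10502762-10503021, minus strand: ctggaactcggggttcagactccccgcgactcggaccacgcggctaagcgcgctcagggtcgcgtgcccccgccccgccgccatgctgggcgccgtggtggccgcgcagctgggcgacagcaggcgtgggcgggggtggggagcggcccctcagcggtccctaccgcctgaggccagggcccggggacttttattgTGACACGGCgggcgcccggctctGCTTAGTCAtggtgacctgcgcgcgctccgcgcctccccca

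In GCLM the core lay at −34 to −26 on the reverse strand and read TGACTAAGC. The same 9 letters stood at −31 to −23 on the reverse strand of KEAP1 window 2, which held a further match, TGACACGGC, at −54 to −46. TXNRD1 window 1 held TGACTTCGC at −99 to −91 and TGACGGAGC at −8 to 1, and window 2 held TGACAAAGC at −102 to −94. A match describes letters only. Enhancers outside these windows were not searched, and the absence of the letters says nothing of NRF2 binding elsewhere.

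In vehicle-treated cells all 9 genes were expressed, some at high and some at middling levels. TXNRD1, the cytosolic thioredoxin reductase, had a mean of 292 RPKM, above 99.1% of the 12713 genes that passed the filter of at least 0.5 RPKM in at least 2 samples. SRXN1 (70.1 RPKM), NQO1 (65.8 RPKM) and NFE2L2 (59.1 RPKM) were each above more than 91% of genes. KEAP1 (40.7 RPKM) was above 87.1% of genes. GCLM, HMOX1 and OSGIN1 stood lower, above 68.8%, 66.6% and 61.5% of genes. GCLC was the lowest of the 9 at 9.89 RPKM, the 54.4th percentile. All 9 genes passed the filter, and in no group was any of them close to the value of 1 read per kilobase, which was 0.0161 to 0.0195 RPKM.

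**Figure D1:**
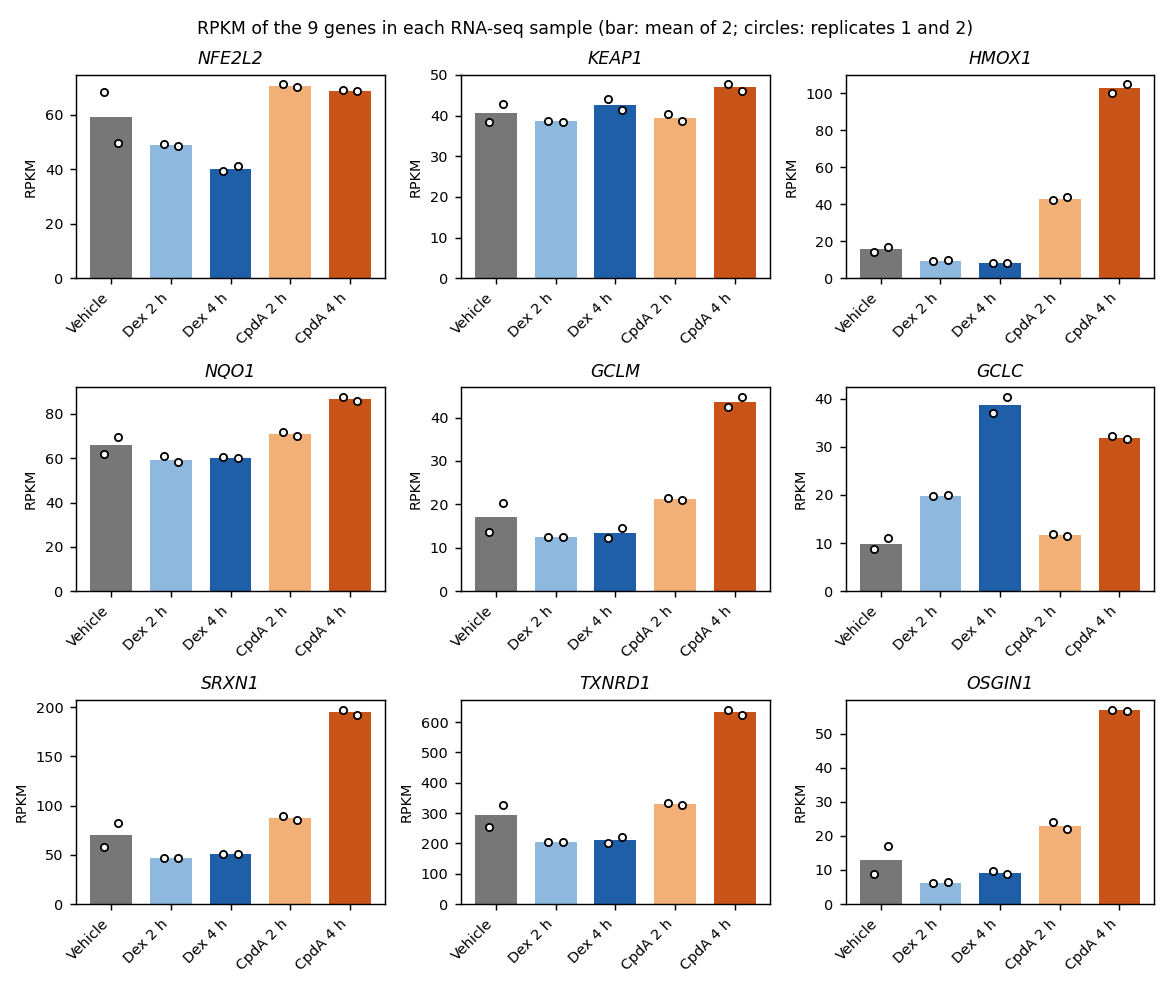
RPKM of the 9 genes (vertical axes from 0) in the 5 groups, with bars at the mean of 2 replicates and circles for each replicate. HMOX1, GCLM, SRXN1, TXNRD1 and OSGIN1 were highest in both CpdA 4 h samples, GCLC was highest in Dex 4 h, and the 2 vehicle circles stand further apart than those of the treated groups for most genes.

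The pattern over the set was as follows. At 4 h of CpdA all 7 targets and KEAP1 had risen against vehicle, 8 of 9 genes at an adjusted p under 0.05 (limma), where 6.76% of all genes tested were called higher. HMOX1, OSGIN1, GCLC, SRXN1, GCLM and TXNRD1, 6 of 9, had also more than doubled, a rule met by 0.535% of all genes. None of the 9 was called lower, against 13.8% of all genes. At 2 h of CpdA, against both vehicle samples together, only HMOX1 was called higher, 1 of 9 genes beside 1.89% of all genes. HMOX1 also passed the rule with a fold over 2 (0.338% of all genes), while 0 of 9 were called lower (4.29%). The 2 h values depended on the vehicle sample used, as given below. The median log2 change of the 9 genes was 0.28 at 2 h and 1.37 at 4 h, beside −0.02 and −0.04 over all genes tested.

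Dex gave another picture. At 2 h of Dex 4 of 9 genes were called lower (HMOX1, SRXN1, TXNRD1 and OSGIN1; 5.82% of all genes) and 1, GCLC, higher (4.49%). At 4 h 4 of 9 were lower (NFE2L2, HMOX1, SRXN1 and TXNRD1; 18.2% of all genes) and GCLC was again the 1 gene called higher (9.26%), also with a fold over 2 (2.1%). The median log2 change of the 9 genes was −0.42 at both times, beside −0.02 and −0.05 over all genes. The Dex and CpdA comparisons share the same 2 vehicle samples, so the ligands were also compared directly.

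**Figure D2:**
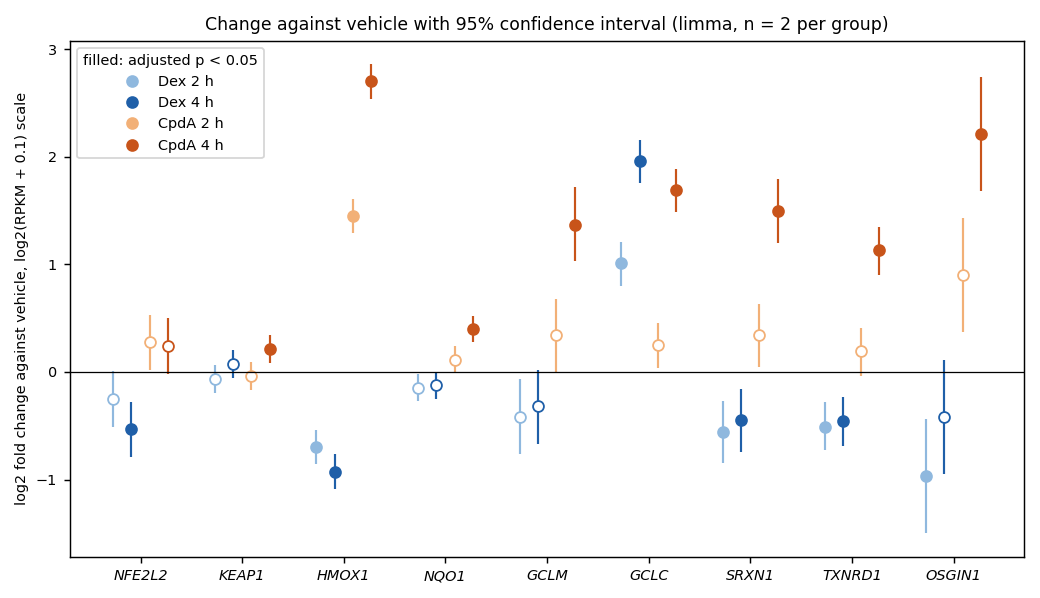
Log2 fold change against vehicle (vertical axis, log2(RPKM + 0.1) scale) of the 9 genes for Dex and CpdA at 2 h and 4 h. Points are limma estimates from 2 samples per group, bars are 95% confidence intervals, and filled points passed an adjusted p under 0.05. The CpdA 4 h points of the targets lie between 0.40 and 2.70, and the Dex points lie below 0 for all targets but GCLC.

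HMOX1, the inducible haem oxygenase that breaks haem down to biliverdin, iron and carbon monoxide, changed most. Its level was 14.4 and 17 RPKM in the vehicle samples, 42.3 and 43.8 RPKM after 2 h of CpdA, and 100 and 105 RPKM after 4 h of CpdA. It was 9.41 and 9.83 RPKM after 2 h of Dex and 8.16 and 8.26 RPKM after 4 h. The 5 groups did not overlap, and vehicle lay between the Dex and the CpdA groups. Against vehicle HMOX1 rose by 1.45 ± 0.07 (SE) on the log2 scale at 2 h of CpdA, 2.74-fold (adjusted p = 7.6e-06, limma), and by 2.70 ± 0.07 at 4 h, 6.51-fold (adjusted p = 1.1e-07, limma). That placed it at rank 37 of 12713 genes by size of increase at 2 h and at rank 9 at 4 h. Under Dex HMOX1 dropped by 0.70 on the log2 scale at 2 h (adjusted p = 1.9e-04, limma), and its change was −0.93 at 4 h (adjusted p = 1.5e-05, limma). The neighbours Dex 2 h and Dex 4 h did not differ at the threshold, with a log2 difference of −0.23 (95% confidence interval −0.39 to −0.07, adjusted p = 0.067, limma).

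OSGIN1, an NRF2-responsive growth inhibitor, had the next largest change. Its vehicle samples were far apart, at 8.76 and 17.1 RPKM. It stood at 24 and 21.9 RPKM after 2 h of CpdA, 57 and 56.8 RPKM after 4 h of CpdA, 6.11 and 6.33 RPKM after 2 h of Dex, and 9.58 and 8.72 RPKM after 4 h of Dex. All 4 CpdA samples were above both vehicle samples, and the Dex 4 h samples lay on both sides of vehicle replicate 1. The rise at 4 h of CpdA was 2.21 ± 0.23 on the log2 scale, 4.62-fold (adjusted p = 3.3e-04, limma). At 2 h the difference of 0.90 missed the threshold (95% confidence interval 0.37 to 1.43, adjusted p = 0.058, limma). OSGIN1 fell by 0.97 after 2 h of Dex (adjusted p = 0.03, limma), a call lost under 4 alternatives (adjusted p between 0.065 and 0.12, limma), and the Dex 4 h difference of −0.42 did not pass (95% confidence interval −0.95 to 0.11, adjusted p = 0.23, limma). That Dex 4 h difference turned to 0.06 against vehicle replicate 1 alone and was −0.90 against vehicle replicate 2 alone.

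SRXN1 and TXNRD1 serve the peroxiredoxin and thioredoxin system. SRXN1, sulfiredoxin, restores over-oxidised peroxiredoxins, and TXNRD1 passes electrons from NADPH to thioredoxin. SRXN1 was 57.5 and 82.6 RPKM in vehicle, 89.7 and 85.1 RPKM at 2 h of CpdA, and 197 and 192 RPKM at 4 h of CpdA. In Dex it was 46.9 and 46.4 RPKM at 2 h and 50.5 and 50.3 RPKM at 4 h. TXNRD1 was 255 and 328 RPKM in vehicle, 333 and 326 RPKM at 2 h of CpdA, 640 and 624 RPKM at 4 h of CpdA, 203 and 203 RPKM at 2 h of Dex, and 200 and 220 RPKM at 4 h of Dex. Both genes had the same order of groups: the Dex groups lowest, then vehicle, then CpdA 2 h, then CpdA 4 h. For TXNRD1 the CpdA 2 h and vehicle samples overlapped, and for both genes the Dex times overlapped or lay next to each other with no call between them. SRXN1 rose by 1.5 ± 0.13 on the log2 scale, 2.82-fold, at 4 h of CpdA (adjusted p = 1.1e-04, limma), and TXNRD1 by 1.13 ± 0.10, 2.18-fold (adjusted p = 1.3e-04, limma). At 2 h of CpdA the differences were 0.34 for SRXN1 (95% confidence interval 0.05 to 0.63, adjusted p = 0.17, limma) and 0.19 for TXNRD1 (−0.04 to 0.41, adjusted p = 0.34, limma). Both genes fell with Dex. SRXN1 was changed by −0.56 after 2 h (adjusted p = 0.023, limma), and the 4 h value was −0.45 (adjusted p = 0.029, limma). For TXNRD1 the 2 h value was −0.51 (adjusted p = 0.01, limma), and the value after 4 h was −0.46 (adjusted p = 0.0081, limma). The 2 h calls of both genes, and the 4 h call of SRXN1, were lost without the filter on low values and with only the 4 samples of the comparison fitted (adjusted p between 0.052 and 0.1, limma).

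The 2 subunits of glutamate-cysteine ligase, which carries out the rate-limiting step of glutathione synthesis, were followed side by side. GCLM, the modifier subunit, was 13.7 and 20.4 RPKM in vehicle, 12.5 and 12.4 RPKM at 2 h of Dex, 12.3 and 14.5 RPKM at 4 h of Dex, 21.4 and 21 RPKM at 2 h of CpdA, and 42.4 and 44.7 RPKM at 4 h of CpdA. Only the CpdA groups were above both vehicle samples, and the Dex 4 h samples overlapped vehicle. GCLC, the catalytic subunit, was 8.8 and 11 RPKM in vehicle, 11.9 and 11.5 RPKM at 2 h of CpdA, 19.8 and 19.9 RPKM at 2 h of Dex, 32.2 and 31.5 RPKM at 4 h of CpdA, and 36.9 and 40.3 RPKM at 4 h of Dex. No 2 groups of GCLC overlapped, and it was the 1 member for which Dex 4 h held the highest level. GCLC rose by 1.01 ± 0.09 on the log2 scale at 2 h of Dex, 2.01-fold (adjusted p = 7.6e-05, limma), and by 1.96 ± 0.09 at 4 h of Dex, 3.89-fold (adjusted p = 4.5e-07, limma). With CpdA at 4 h GCLC rose by 1.69 ± 0.09, 3.22-fold (adjusted p = 9.6e-06, limma), and GCLM by 1.37 ± 0.15, 2.59-fold (adjusted p = 4.1e-04, limma). The Dex differences of GCLM did not pass, at −0.42 (95% confidence interval −0.76 to −0.07, adjusted p = 0.14, limma) for 2 h and −0.32 (−0.67 to 0.02, adjusted p = 0.15, limma) for 4 h. Neither subunit was called at 2 h of CpdA, with differences of 0.34 for GCLM (−0.01 to 0.68) and 0.25 for GCLC (0.04 to 0.45). Whether the subunits differed from each other in their response was not tested.

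NQO1, the quinone reductase whose mRNA is the classical reporter of NRF2, moved in the same order but over a small range. It was 62 and 69.7 RPKM in vehicle, 60.8 and 58.1 RPKM at 2 h of Dex, 60.5 and 60.1 RPKM at 4 h of Dex, 72 and 70.2 RPKM at 2 h of CpdA, and 87.6 and 85.9 RPKM at 4 h of CpdA. The Dex groups overlapped each other, and CpdA 4 h stood apart from all other groups. NQO1 rose by 0.40 ± 0.05 on the log2 scale, 1.32-fold, at 4 h of CpdA (adjusted p = 0.0011, limma), and ranked 460 of 12713 genes by size of increase. The other differences against vehicle were 0.11 at 2 h of CpdA (95% confidence interval −0.01 to 0.24), −0.15 at 2 h of Dex (−0.27 to −0.02) and −0.12 at 4 h of Dex (−0.25 to 0.00), none of which passed.

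Against both vehicle samples together, only KEAP1 of the 2 regulators was called with CpdA, at 4 h. With Dex only NFE2L2 was called, at 4 h. NFE2L2 was 68.3 and 49.8 RPKM in vehicle, 71.3 and 70.2 RPKM at 2 h of CpdA, 69 and 68.8 RPKM at 4 h of CpdA, 49.5 and 48.6 RPKM at 2 h of Dex, and 39.4 and 41.2 RPKM at 4 h of Dex. The vehicle samples spanned most of the range of the gene, so the CpdA groups stood just above the higher vehicle sample and the Dex groups below the lower one. The difference from vehicle was 0.28 on the log2 scale at 2 h of CpdA (95% confidence interval 0.02 to 0.53, adjusted p = 0.21, limma) and 0.24 at 4 h of CpdA (−0.02 to 0.50, adjusted p = 0.18, limma). These values depended on the vehicle sample. Against replicate 1 and replicate 2 alone, NFE2L2 changed by 0.05 and 0.50 at 2 h of CpdA, and by 0.01 and 0.47 at 4 h. NFE2L2 fell by 0.53 at 4 h of Dex (adjusted p = 0.0074, limma), while the 2 h difference of −0.25 did not pass (−0.51 to 0.01, adjusted p = 0.25, limma). KEAP1 was 38.5 and 42.9 RPKM in vehicle, 38.7 and 38.5 RPKM at 2 h of Dex, 44.1 and 41.3 RPKM at 4 h of Dex, 40.4 and 38.6 RPKM at 2 h of CpdA, and 47.7 and 46.1 RPKM at 4 h of CpdA. Only the CpdA 4 h samples lay above all others. KEAP1 rose by 0.21 ± 0.06 at 4 h of CpdA, 1.15-fold (adjusted p = 0.034, limma). Its change was 0.28 against vehicle replicate 1 alone and 0.13 against replicate 2 alone. The call was lost without the filter on low values (adjusted p = 0.073, limma) and in 7 of 10 fits with 1 sample left out.

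The vehicle samples differed for these genes more than the treated replicates did. All 7 targets were higher in vehicle replicate 2 than in replicate 1, and the difference exceeded 0.3 on the log2 scale for 5 of 7 targets, against 4.1% of all genes tested. The widest gap was that of OSGIN1, 0.97 on the log2 scale, while no treated replicate pair of any member differed by more than 0.24. NFE2L2 went the other way, 0.45 lower in replicate 2. Replicate and named time coincide in vehicle, so the 2 cannot be told apart here. The depths of these libraries were close. Each comparison with vehicle was therefore repeated with 1 vehicle sample at a time, in which the lone sample is assumed to vary like the other groups. For these genes the treated groups varied less than vehicle, so the log2 changes are given without calls.

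At 4 h of CpdA all 7 targets were called higher against either vehicle sample alone (limma), where 5.8% of all genes were called higher against replicate 1 and 5.41% against replicate 2. The log2 change ran from 0.48 for NQO1 to 2.82 for HMOX1 against replicate 1 and from 0.32 for NQO1 to 2.58 for HMOX1 against replicate 2. Against replicate 2 alone, the sample with the higher target levels, OSGIN1 was at 1.73, GCLC at 1.53, SRXN1 at 1.24, GCLM at 1.09 and TXNRD1 at 0.94. At 2 h of CpdA the result depended on which vehicle sample was used. By the column headers, replicate 1 would be the reference of the same time for 2 h, and replicate 2 for 4 h. Against replicate 1 alone 6 of 9 genes were called higher, beside 1.22% of all genes: HMOX1 (1.57), OSGIN1 (1.38), GCLM (0.62), SRXN1 (0.60), GCLC (0.40) and TXNRD1 (0.37). Against replicate 2 alone HMOX1 (1.33), NFE2L2 (0.50) and OSGIN1 (0.42) were called higher, 3 of 9 genes beside 3.59% of all genes, and GCLM (0.05), SRXN1 (0.08), GCLC (0.09) and TXNRD1 (0.00) were near 0. HMOX1 was thus the 1 gene called at 2 h of CpdA against both vehicle samples together, and it had the largest rise against each alone. OSGIN1, not called against both together, was higher against each alone. For Dex, HMOX1 was lower against each vehicle sample alone at both times, between −0.58 and −1.04, whereas GCLM at 4 h was −0.04 against replicate 1 and −0.61 against replicate 2. The other called Dex decreases kept their sign but not their size. OSGIN1 at 4 h, which was not called, turned to 0.06 against replicate 1 and was −0.90 against replicate 2. Against replicate 1 and replicate 2 in turn, OSGIN1 at 2 h was −0.49 and −1.45, SRXN1 −0.30 and −0.82 at 2 h and −0.19 and −0.71 at 4 h, and TXNRD1 −0.32 and −0.69 at 2 h and −0.28 and −0.64 at 4 h. NFE2L2 was −0.48 and −0.02 at 2 h and −0.76 and −0.31 at 4 h. GCLM at 2 h was −0.13 and −0.71. NQO1 was −0.06 and −0.23 at 2 h and −0.04 and −0.21 at 4 h. GCLC was higher, by 1.16 and 0.85 at 2 h and by 2.12 and 1.8 at 4 h.

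**Figure D3:**
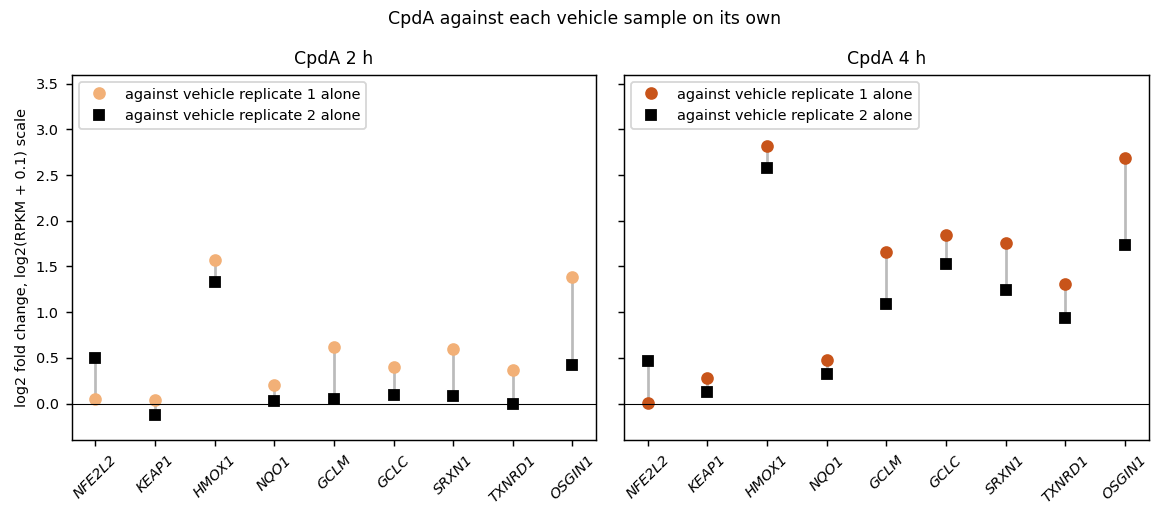
Log2 fold change (vertical axis, log2(RPKM + 0.1) scale) of the 9 genes at 2 h (left) and 4 h (right) of CpdA, against vehicle replicate 1 alone (circles) and replicate 2 alone (squares). At 4 h all 7 targets lie above 0 against either sample, while at 2 h GCLM, GCLC, SRXN1 and TXNRD1 lie between 0.37 and 0.62 against replicate 1 and between 0.00 and 0.09 against replicate 2.

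Comparing CpdA with Dex at the same time uses no vehicle sample in the difference. At 2 h 7 of 9 genes were higher in CpdA than in Dex (6.18% of all genes) and 1, GCLC, lower (7.53%). At 4 h the counts were again 7 higher (18% of all genes) and 1 lower (15.4%), and the called genes were the same at both times: NFE2L2, HMOX1, NQO1, GCLM, SRXN1, TXNRD1 and OSGIN1 higher, GCLC lower. The 2 h call of NFE2L2 was lost without the filter on low values (adjusted p = 0.059, limma), and with 1 sample left out the 2 h calls of NFE2L2 and GCLM were lost in 4 of 10 fits and that of NQO1 in 3. HMOX1 was 4.44-fold higher in CpdA at 2 h (adjusted p = 1.0e-07, limma) and 12.4-fold higher at 4 h (adjusted p = 4.5e-09, limma). At 4 h OSGIN1 was 6.17-fold, SRXN1 3.85-fold, GCLM 3.24-fold and TXNRD1 3.01-fold higher in CpdA, with adjusted p between 3.2e-06 and 3.3e-05 (limma). NFE2L2 itself was 1.71-fold higher (adjusted p = 7.3e-04, limma) and NQO1 1.44-fold higher (adjusted p = 8.7e-05, limma). GCLC was 1.69-fold lower in CpdA than in Dex at 2 h (adjusted p = 4.0e-04, limma) and 1.21-fold lower at 4 h (adjusted p = 0.043, limma), the latter lost with quantile normalization (adjusted p = 0.081, limma). KEAP1 did not pass, with a log2 difference of 0.03 at 2 h (95% confidence interval −0.10 to 0.16) and 0.14 at 4 h (0.01 to 0.27).

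Between 2 h and 4 h of CpdA 8 of 9 genes rose (5.21% of all genes) and 0 fell (7.2%). The log2 increase was 1.44 for GCLC, 1.31 for OSGIN1, 1.25 for HMOX1, 1.15 for SRXN1, 1.04 for GCLM, 0.94 for TXNRD1, 0.29 for NQO1 and 0.25 for KEAP1, with adjusted p between 9.7e-05 and 0.025 (limma). The KEAP1 call was lost without the filter on low values (adjusted p = 0.061, limma), and those of KEAP1, NQO1 and OSGIN1 were each lost in 4 of 10 fits with 1 sample left out. NFE2L2 showed a difference of −0.04 (95% confidence interval −0.29 to 0.22). Between 2 h and 4 h of Dex GCLC alone was called, 1 of 9 genes higher (4.55% of all genes) by 0.95 (adjusted p = 3.3e-04, limma), and 0 were called lower (9.02%). The change over time was tested between the ligands as an interaction, the CpdA minus Dex difference at 4 h less that at 2 h. It was positive for 4 of 9 genes (3.56% of all genes) and negative for 0 (3.04%). It amounted to 1.48 ± 0.10 on the log2 scale for HMOX1 (adjusted p = 2.6e-04, limma), 1.04 ± 0.18 for SRXN1 (adjusted p = 0.012, limma), 0.94 ± 0.22 for GCLM (adjusted p = 0.035, limma) and 0.89 ± 0.14 for TXNRD1 (adjusted p = 0.0076, limma). For GCLC the interaction of 0.49 (0.20 to 0.77, adjusted p = 0.056, limma) and for OSGIN1 that of 0.76 (0.01 to 1.51, adjusted p = 0.24, limma) did not pass.

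A wider list of 93 pathway genes outside the set, in 7 groups by function, was examined next. The files held 91 of them and 82 were tested. Of these 82 genes 27 were higher and 3 lower at 4 h of CpdA, beside 6.76% and 13.8% of all genes, with a median log2 change of 0.08. At 2 h of CpdA 7 were higher and 1 lower, beside 1.89% and 4.29% of all genes. SLC7A11 alone exceeded a log2 change of 1 at 4 h of CpdA. At 4 h of Dex 9 of 82 were higher and 15 lower, shares close to the 9.26% and 18.2% of all genes. Directly compared at 4 h, 37 of 82 were higher and 8 lower in CpdA than in Dex, beside 18% and 15.4% of all genes.

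Among NRF2 regulators and partners 3 of 12 tested rose and 1, NFE2L3, fell (−0.29) at 4 h of CpdA. Of all genes, 6.76% were higher and 13.8% lower there. The small MAF partners MAFG and MAFK, with which NRF2 pairs on DNA, rose by 0.53 (adjusted p = 4.7e-04, limma) and 0.49 (adjusted p = 0.0012, limma). SQSTM1, the autophagy adaptor p62 that binds KEAP1, went from 180 and 191 RPKM in vehicle to 265 and 271 RPKM at 4 h of CpdA, a rise of 0.53 (adjusted p = 1.4e-04, limma). At 2 h MAFK (0.71) and BACH1, a repressor at AREs (0.38), were higher and CUL3, the ligase scaffold that KEAP1 recruits, lower (−0.21). In Dex at 4 h 7 of 12 were lower and 0 higher, beside 18.2% and 9.26% of all genes, with MAFK at 11.7 and 10.5 RPKM against 17.1 and 15.6 RPKM in vehicle. All 3 of MAFG, MAFK and SQSTM1 were therefore above vehicle in CpdA and below it in Dex.

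Of the genes of glutathione synthesis, use and export 6 of 21 rose and 1, MGST2, fell at 4 h of CpdA. The shares over all genes were 6.76% higher and 13.8% lower. SLC7A11, the cystine carrier that supplies cysteine for glutathione, was 12.3 and 16.8 RPKM in vehicle and 11.1 and 12.4 RPKM at 2 h of CpdA, then 30.6 and 31.8 RPKM at 4 h, a rise of 1.11 (adjusted p = 0.004, limma). Its partner chain SLC3A2 rose by 0.41 (adjusted p = 0.0017, limma) and GSR, glutathione reductase, by 0.68 (adjusted p = 1.2e-04, limma). None of the 21 was called at 2 h of CpdA, where 1.89% of all genes were higher and 4.29% lower. GSR also rose at 4 h of Dex, by 0.41 (adjusted p = 8.2e-04, limma). It was 1 of 4 genes of the group higher there, beside 9.26% of all genes.

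Of the thioredoxin and peroxiredoxin genes 5 of 13 rose and 0 fell at 4 h of CpdA, beside 6.76% and 13.8% of all genes. SESN2, a stress-induced sestrin, went from 14.2 and 13 RPKM to 25 and 24.2 RPKM at 2 h and to 26.8 and 26.9 RPKM at 4 h of CpdA, a rise of 0.98 at 4 h (adjusted p = 1.8e-04, limma). TXN, thioredoxin itself, rose by 0.39 (adjusted p = 9.7e-04, limma). TXNIP, the inhibitor of thioredoxin, rose with both ligands, from 112 and 113 RPKM in vehicle to 159 and 155 RPKM at 4 h of CpdA and to 381 and 403 RPKM at 4 h of Dex. The CpdA samples lay between vehicle and Dex for this gene.

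The remaining groups moved in small steps at 4 h of CpdA, where 6.76% of all genes were higher and 13.8% lower. In quinone, carbonyl and xenobiotic metabolism 4 of 12 rose and 0 fell, among them AKR1C1 (0.49), PTGR1 (0.47) and AKR1C3 (0.35). AKR1C1 and AKR1C3 are close in sequence to each other and to AKR1C2, so their reads may be shared and their values are uncertain. In haem and iron handling 3 of 10 rose and 1, HMOX2 (−0.24), fell. FTL, the ferritin light chain, rose by 0.50 from 1380 and 1400 RPKM to 1950 and 1970 RPKM, FTH1, the heavy chain, by 0.45, and the iron exporter SLC40A1 by 0.74 at a low level of 1.83 and 2.05 RPKM. In NADPH supply 5 of 10 rose and 0 fell, with MTHFD2, a mitochondrial folate enzyme, at 0.82, and TALDO1 and PGD of the pentose phosphate pathway at 0.41 and 0.26. Of the superoxide and peroxide enzymes SOD1 alone rose, 1 of 4, by 0.28 (adjusted p = 0.0076, limma).

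**Figure D4:**
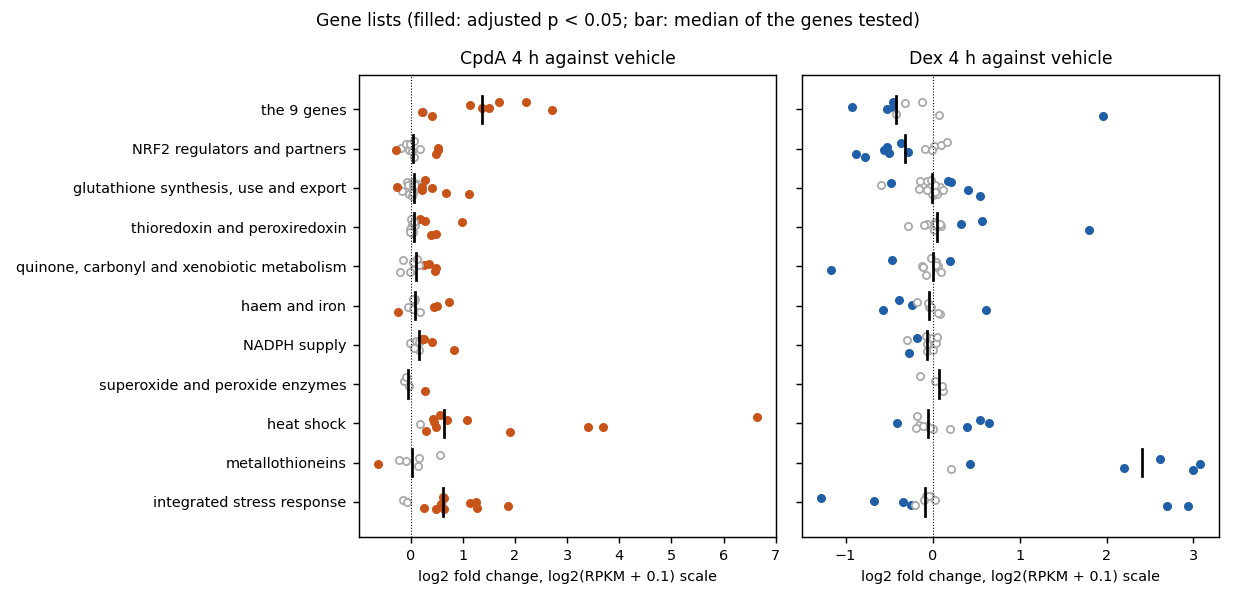
Log2 fold change (horizontal axis, log2(RPKM + 0.1) scale) of every tested gene of the 9-gene set, the 7 pathway groups and 3 comparison lists at 4 h of CpdA (left) and 4 h of Dex (right). Points are genes, filled where the adjusted p was under 0.05, and vertical bars are medians. With CpdA the medians of the pathway groups lie between −0.06 and 0.16 and that of the 9 genes at 1.37. With Dex the median of the 9 genes lies at −0.42 and that of the regulators and partners at −0.32, and those of the other pathway groups lie between −0.06 and 0.07.

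Genes of 3 other stress programmes were counted for comparison. Of all genes, 1.89% were higher and 4.29% lower at 2 h of CpdA, and 6.76% and 13.8% at 4 h of CpdA. At 4 h of Dex the shares were 9.26% and 18.2%. Of 12 heat shock genes 11 rose and 0 fell at 4 h of CpdA, with a median of 0.63, and 7 rose at 2 h. HSPA6, a strictly inducible HSP70, went from 0.331 and 0.457 RPKM in vehicle to 43.6 and 54.4 RPKM at 4 h of CpdA. HSPA1A rose by 3.69, although its reads can be shared with the near-identical HSPA1B. Of 12 genes of the integrated stress response 10 rose and 0 fell at 4 h of CpdA, with a median of 0.62, ATF3 among them (1.86, adjusted p = 0.0022, limma). At 2 h of CpdA 9 of these 12 had already risen and 1, ATF5, fell, with a median of 0.51. The ATF3 vehicle samples were 13 and 5.57 RPKM, so this gene too differed between them. DDIT4, a stress-induced mTORC1 inhibitor that is also a glucocorticoid target, rose with both ligands, by 1.28 at 4 h of CpdA and by 2.69 at 4 h of Dex. Of 6 metallothionein genes tested 0 rose and 1, MT1A, fell (−0.63) at 4 h of CpdA. At 4 h of Dex 5 of these 6 rose, with a median of 2.41. Of the 12 heat shock genes 3 were higher and 1 lower at 4 h of Dex. Of the 12 integrated stress response genes 2 were higher and 4 lower there. The 9 genes were therefore not the only stress genes higher after CpdA. The part of the heat shock and integrated stress responses in the values of the 9 genes, or of the 7 pathway groups, was not tested.

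Over the 10 samples, the 6 targets other than GCLC were closely correlated. Pearson's r of their log2 values lay between 0.95 and 1.0 for every pair, as a description over samples that share groups and libraries. The r does not compare the size of changes. At 2 h of CpdA, HMOX1 changed by 1.45 and NQO1 by 0.11. GCLC had r between −0.01 and 0.18 with the other 6 targets. Among all tested genes SRXN1 was most like TXNRD1 (r = 0.997), NQO1 (0.996) and RALA (0.995), and GCLM was most like SRXN1 (0.994) and TXNRD1 (0.993). HMOX1 was most like PALLD (0.99), HSPH1 (0.99) and IFRD1 (0.988), and OSGIN1 like SLC3A2 (0.991), MXD1 (0.986) and MBD4 (0.986). GCLC was nearest to NUMBL (0.978), EXPH5 (0.962) and TSPYL2 (0.958), NFE2L2 to NCOA7 (0.984) and KEAP1 to ZDHHC18 (0.985). With NFE2L2, the r of the 6 targets lay between 0.65 and 0.82.

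The genes lie apart from each other in the genome (GRCh37, GENCODE annotation), and all are protein-coding. NFE2L2 lies at chr2:178083395-178257484 and KEAP1 at chr19:10596801-10614234, both on the minus strand. HMOX1 lies at chr22:35776354-35790207 and TXNRD1 at chr12:104609557-104744085, both on the plus strand. GCLM (chr1:94350755-94375012), GCLC (chr6:53362139-53481768) and SRXN1 (chr20:627259-633844) lie on the minus strand. NQO1 (chr16:69740899-69760571, minus strand) and OSGIN1 (chr16:83964916-83999937, plus strand) share a chromosome.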

How the data were processed

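RNA-seq was analysed from the 10 samples of MDA-MB-231 cells described above, grouped by their labels. The remaining 12 of the 22 samples of the study are chromatin immunoprecipitation libraries, not analysed here. The authors extracted RNA, prepared cDNA libraries, generated 50-base single-end reads, aligned them with TopHat 2.0.13 and derived transcript abundances in Partek 6.6, and the deposited values are RPKM for 20668 gene symbols per sample. The submitters' processing notes also name hg19, without a role. How transcripts were combined into symbols is not given in the sources used here.

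RPKM values were transformed to log2(RPKM + 0.1) without further scaling, so fold changes of low genes are understated. Genes with at least 0.5 RPKM in at least 2 samples were kept (12713). One limma model (version 3.58.1, R 4.3.3, abundance trend) covered all 5 groups. The p-values are two-sided with Benjamini-Hochberg adjustment across all 12713 genes, and a gene was called at an adjusted p under 0.05. With 2 samples per group the spread was estimated jointly. The script was tested on simulated data. Alternatives were other pseudocounts, filters, scalings and spread estimates, a replicate block, only the samples compared, and leaving out each sample. A group left with 1 sample adds nothing to the estimate of spread, which limits the calls of those fits. Depth was estimated from microRNA hairpins at 1 read, with whole reads taken within a tolerance of 0.02. Between 59.9% and 66.3% of hairpins above 0 came out whole, so depths are approximate. Depth covers counting precision only.

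The 9 genes, the lists and the named genes (up to 3 called genes per pathway list by size of change at 2 h and at 4 h of CpdA, up to 2 per comparison list, the 3 genes with the highest r) were chosen with earlier results of these data known. Genes outside that rule were named after their values were seen. Samples were not paired by replicate number in the reported fit. The deviations of same-numbered samples correlated at 0.0544 on average over 10 pairs of groups (from −0.0568 to 0.1975). This correlation cannot show whether same-numbered samples were handled together.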

Additional observations from a re-analysis of the deposited data

Results flagged for a closer look

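The difference between CpdA and Dex changed between 2 h and 4 h for 4 genes, which drew attention because the interaction itself was tested (limma, adjusted over all genes). The CpdA minus Dex difference grew by 1.48 on the log2 scale for HMOX1, by 1.04 for SRXN1, by 0.94 for GCLM and by 0.89 for TXNRD1. The interaction uses no vehicle sample in its value. For each of the 4 genes both CpdA 4 h samples were above both CpdA 2 h samples. The gap was larger than any rise of the Dex 4 h samples over the Dex 2 h samples. The 4 genes were picked by these same 8 samples, so this only describes the calls and adds no support. The calls of SRXN1 (adjusted p = 0.053, limma) and GCLM (adjusted p = 0.11, limma) were lost without the filter on low values, and that of GCLM also with a robust spread estimate (adjusted p = 0.063, limma), without the abundance trend (adjusted p = 0.074, limma) and in 7 of 10 fits with 1 sample left out. HMOX1 and TXNRD1 passed under these alternatives.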

How the results depend on the processing

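Of 801 values of single genes recomputed under alternatives other than leaving out a sample, 769 kept their direction and their side of the threshold, 26 lost the call, 5 gained one and 1 changed sign. That 1 was NQO1 between 4 h and 2 h of Dex, −0.01 with quantile normalization. Of 810 values with 1 sample left out, 715 stayed, 59 lost the call, 29 gained one and 7 changed sign, none of them called in the reported fit: KEAP1 at 2 h of CpdA (from −0.12 to 0.04), at 2 h of Dex (−0.15 to 0.00) and at 4 h of Dex (−0.01 to 0.15), OSGIN1 at 4 h of Dex (−0.90 to 0.06), and between the Dex times NQO1 (−0.01 to 0.05), GCLM (−0.02 to 0.21) and TXNRD1 (−0.02 to 0.12). The cause was not tested. Of 10 fits with 1 sample left out, the call was lost in 7 for KEAP1 at 4 h of CpdA, GCLC between the ligands at 4 h and the GCLM interaction, in 6 for OSGIN1 at 2 h of Dex, in 3 for the SRXN1 interaction, and in 2 for SRXN1 at either time and TXNRD1 at 2 h of Dex.

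With only the 4 samples of a comparison fitted, 480 genes were called at 2 h of CpdA in place of 786, 1775 at 4 h of Dex in place of 3487, 3500 between the CpdA times in place of 1577 and 696 between the Dex times in place of 1725, and the cause was not tested. Among the 9 genes that fit left 1 lower at 2 h of Dex and gave 2 higher and 1 lower between the Dex times. With a stricter filter, at least 1 RPKM in every sample, 2 of the 9 were higher at 2 h of CpdA, OSGIN1 being the added one (adjusted p = 0.043, limma). With no filter 1 of the 9 was lower at 2 h of Dex, 2 had a positive interaction, 0 were lower in CpdA than in Dex at 4 h, and 4 pathway genes were higher at 2 h of CpdA. Quantile normalization, and the fit without the abundance trend, also gave 0 lower in CpdA than in Dex at 4 h, and the latter left 2 lower at 2 h of Dex. Pathway genes lower at 2 h of CpdA numbered 0 with quantile normalization, median centring or 4 samples, and those lower at 4 h of CpdA numbered 1 with median centring. The replicate block changed 1 call of the 9 genes, HMOX1 between the Dex times (−0.23, adjusted p = 0.033, limma), which made 1 gene lower, and it changed no other call of a member.

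With 1 sample left out, the count of genes called ran from 216 to 1450 at 2 h of CpdA, 1188 to 3638 at 4 h of CpdA, 766 to 1705 at 2 h of Dex, 2767 to 4754 at 4 h of Dex, 958 to 2295 between the ligands at 2 h, 2762 to 5153 at 4 h, 262 to 2502 between the CpdA times, 594 to 3424 between the Dex times and 293 to 2127 for the interaction. Of the 9 genes the number called higher ran from 1 to 6 at 2 h of CpdA, 7 to 8 at 4 h of CpdA, 4 to 7 between the ligands at 2 h, 5 to 8 between the CpdA times, 1 to 2 between the Dex times and 2 to 8 for the interaction. The number called lower ran from 1 to 6 at 2 h of Dex, 3 to 7 at 4 h of Dex, 0 to 1 between the ligands at 4 h and 0 to 2 between the Dex times. Pathway genes ran from 3 to 11 higher and 0 to 2 lower at 2 h of CpdA and from 0 to 5 lower at 4 h of CpdA.

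Scaling moved the split of all called genes. Higher calls made up 33% at 4 h of CpdA in the reported fit, 46.8% with quantile normalization and 55.8% with median centring, and 33.8%, 44.8% and 49.9% at 4 h of Dex. At 2 h of CpdA they made up 30.5%, 39.5% and 44.6%, and at 2 h of Dex 43.6%, 47.6% and 48.1%. All 9 genes lay far above the value of 1 read per kilobase in every sample.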

Other observations

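With Dex, the partners of NRF2 and several genes outside the named ones moved against vehicle, chosen here after their values were seen. BACH1, the ARE repressor, fell by 0.88 on the log2 scale at 4 h of Dex (adjusted p = 9.7e-05, limma), and the small MAF gene MAFF fell by 0.78 (adjusted p = 0.011, limma). AHR, the aryl hydrocarbon receptor, fell by 1.17, and was 1.03 higher in CpdA than in Dex at 4 h. PRDX6, a peroxiredoxin with phospholipase activity, rose by 0.57 and the exporter gene ABCC4 by 0.54 at 4 h of Dex. FTH1 rose at 4 h with both ligands, by 0.45 with CpdA and by 0.61 with Dex (adjusted p = 4.4e-05, limma), while FTL was 1370 and 1310 RPKM at 4 h of Dex beside 1380 and 1400 RPKM in vehicle.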
